A study of Mus musculus with 4 samples.

Results

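The 3 Pim kinase genes and the genes that carry signal from Il6 to Stat3 were examined in 4 mouse mammary tumor cell lines, 1 RNA sequencing (RNA-seq) library per line. The set held 10 of the 21090 genes in the deposited table, namely the kinases Pim1, Pim2 and Pim3, the cytokines Il6 and Lif, the receptors Il6st and Osmr, the kinase Jak1, the transcription factor Stat3 and the inhibitor Socs3. The set was chosen by name together with a value of these data, the higher Pim1 level in both knockouts, so the knockout differences of these genes are given as a description with no test. The control lines were the parental line (label "307 cell") and a line with the vector control (label "307 cell vector control"). The knockout lines were "307 cell S100a4 exon3 KO" and "308 cell S100a4 exon2 KO", in which the gene of the calcium-binding protein S100a4 was targeted with CRISPR/Cas9. All 4 lines derived, per the study, from a metastatic primary mammary tumor of a mouse with an activated Pik3ca allele and a mutant Trp53 allele under Cre recombinase driven by the MMTV promoter, and the study describes 1 starting line although the labels carry the numbers 307 and 308. Each line was a single culture sequenced once, an edited line stands for 1 guide RNA, and the labels name no treatment.

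Pim kinases are serine/threonine kinases that are active as soon as they are made, so their amount is set mainly by transcription and turnover. Cytokines of the Il6 family bind receptor pairs that share gp130, the product of Il6st, and receptor-bound Janus kinases then phosphorylate Stat3, which enters the nucleus and switches on genes such as Pim1 and Socs3. Socs3 closes the loop by blocking the receptor and its kinase. In the mammary gland, Lif acting through Stat3 is best known for starting involution after weaning.

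Levels were given as RPKM, in which reads are divided by gene length and by the read total of the library. The values of a library summed to between 478552 and 570563 RPKM, so scaling by read total did not give the libraries a common RPKM total. The totals behind the RPKM values ran from 22472024 reads in the exon 2 knockout to 31235456 in the parental line. S100a4 itself was at 3576 RPKM in parental cells, 4741 with the vector, 1136 in exon 3 and 1105 in exon 2 knockout cells. The knockout mean was 26.9% of the control mean, and the RNA level alone does not show how much protein was left. The study reported loss of the protein in the knockout lines by Western blot. It also reported truncating mutations in most of their S100a4 transcripts.

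The first start sites of 4 of the genes are shown because Pim1 and Pim3 were higher in the knockouts, Lif was lower, and the Socs3 window held the only STAT motif of the set. Each sequence runs from 170 bases before to 30 bases after the start annotated in RefSeq (GRCm38.p6), read 5′ to 3′ on the strand of the gene. Capitals mark the STAT motif TTCNNNGAA, which reads the same on both strands, and the GC box GGGCGG on either strand.
Pim1 (chr17:29490615-29490814, plus strand): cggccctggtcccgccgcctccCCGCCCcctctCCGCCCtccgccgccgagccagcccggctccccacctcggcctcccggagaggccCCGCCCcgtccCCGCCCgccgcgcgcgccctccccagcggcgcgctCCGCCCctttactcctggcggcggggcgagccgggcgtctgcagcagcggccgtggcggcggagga
Pim3 (chr15:88862024-88862223, plus strand): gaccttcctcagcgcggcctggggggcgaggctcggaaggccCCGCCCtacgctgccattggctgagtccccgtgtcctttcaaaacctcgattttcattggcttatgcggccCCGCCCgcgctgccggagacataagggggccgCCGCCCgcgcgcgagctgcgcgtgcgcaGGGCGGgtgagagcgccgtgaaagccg
Lif (chr11:4257398-4257597, plus strand): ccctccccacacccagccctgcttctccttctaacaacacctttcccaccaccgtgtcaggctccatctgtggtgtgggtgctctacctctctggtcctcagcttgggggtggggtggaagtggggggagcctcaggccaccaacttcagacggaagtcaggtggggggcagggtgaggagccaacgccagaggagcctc
Socs3 (chr11:117969337-117969536, minus strand): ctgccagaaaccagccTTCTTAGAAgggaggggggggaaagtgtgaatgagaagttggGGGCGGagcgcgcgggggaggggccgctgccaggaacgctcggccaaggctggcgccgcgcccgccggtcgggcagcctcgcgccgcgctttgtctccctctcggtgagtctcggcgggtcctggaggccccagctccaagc

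All 10 genes had a promoter window of 300 bases, from 250 before to 50 after the start, and Pim1 had 2. TTCNNNGAA was found in 1 of these 11 windows, as TTCTTAGAA in Socs3 (chr11:117969512-117969520), 154 bases before the start. Of all 32851 windows in the RefSeq set, 8.3% held that motif and 35.7% held GGGCGG on either strand. Over the whole 300 bases, Pim1 held 7 GC boxes around its first start (not all fall in the stretch shown), Pim3 held 4, Socs3 held 2 and Lif held none. The first Pim1 window was 81.3% G and C, a share reached by 0.654% of all windows, and the second Pim1 window was 49% against a median of 52.7%. The Pim3 window was at 69%, that of Socs3 at 73.3% and that of Lif at 63.7%. These are counts of letters in a fixed window and say nothing of the binding of a factor.

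Pim1 (ENSMUSG00000024014.8, chromosome 17, 29490753 to 29496112, plus strand, 6 exons) was at 5.54 RPKM in parental cells, 7.98 with the vector, 23.1 in exon 3 and 24.4 in exon 2 knockout cells. Both knockouts were above both controls. The means were 23.7 ± 0.961 (SD, n = 2) in knockouts and 6.76 ± 1.73 (SD, n = 2) in controls, a ratio of 3.51. On the log2(RPKM + 1) scale the fitted difference was 1.69 (SE 0.326), and the 4 single pairs of a knockout and a control ran from 1.42 to 1.96. Behind these values stood 163, 191, 510 and 517 reads in the order above. By level, Pim1 moved from places 8607 and 7790 among the genes of the controls to places 4115 and 4018 in the knockouts. Of 10871 genes with mean RPKM of at least 1, 16 had a larger log2 difference than Pim1.

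Pim1 also differed between the controls, with the vector control 1.44 times the parental line. The 95% Wilson interval of the parental value was 4.75 to 6.46 RPKM and that of the vector control 6.93 to 9.2, so the intervals did not overlap. Such intervals cover counting error only and leave out variation between cultures, since each line was sequenced once. Reads without molecular identifiers are not independent molecules, so the intervals may be too narrow even for that error. The knockouts had overlapping intervals, 21.2 to 25.2 RPKM for exon 3 and 22.4 to 26.6 for exon 2. An antisense gene, Gm26885, covers the first 1173 bases of Pim1 in GENCODE M21 on the opposite strand and has no row of its own in the table. Whether counting used strand is not given in the sources used here, and reads of the antisense gene could not be told apart from reads of Pim1.

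Pim3 (ENSMUSG00000035828.11, chromosome 15, 88862186 to 88865726, plus strand, 6 exons) was the kinase of the family with the highest level in every library. It was at 69.6 RPKM in parental cells, 55.1 with the vector, 132.6 in exon 3 and 136.8 in exon 2 knockout cells. The knockout values lay close together and above both controls. The means were 134.7 ± 2.93 (SD, n = 2) and 62.4 ± 10.3 (SD, n = 2), a ratio of 2.16, and the fitted log2 difference was 1.11 (SE 0.296) with single pairs from 0.92 to 1.3. A larger log2 difference was seen for 103 genes.

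Pim2 (ENSMUSG00000031155.16, chromosome X, plus strand) was the lowest of the family and showed no order by group. Its level was 2.56 RPKM in parental cells, 4.49 with the vector, 5.09 in exon 3 and 2.72 in exon 2 knockout cells, from 89, 127, 133 and 68 reads. The parental line and the exon 2 knockout were the lower pair, and the groups overlapped. The fitted log2 difference was 0.11 (SE 0.399), the single pairs ran from -0.56 to 0.77, and the difference was -0.26 after correction for GC content and length.

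Summed, the RNA of the 3 kinases was 77.7 RPKM in parental cells, 67.6 with the vector, 160.8 in exon 3 and 163.9 in exon 2 knockout cells. Pim3 made up 89.6%, 81.5%, 82.5% and 83.4% of that sum in the same order. The share of Pim1 was 7.13% in parental cells, 11.8% with the vector, 14.4% in exon 3 and 14.9% in exon 2 knockout cells, so its share in the vector control lay nearer to the knockouts than its level did.

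**Figure D1:**
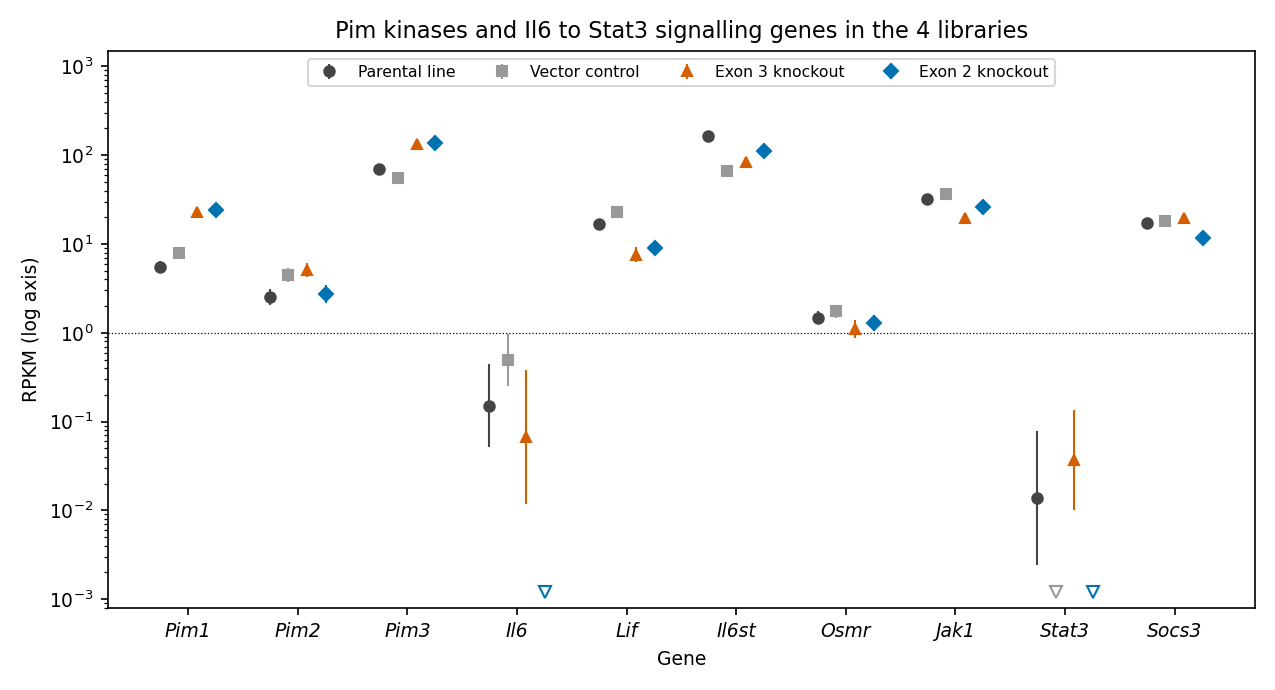
RPKM (log axis) of the 10 genes in each library, with 95% Wilson intervals that cover counting error only. Open triangles at the bottom mark values listed at 0, and the dotted line marks 1 RPKM. Pim1 and Pim3 sit higher and Lif lower in both knockouts, while Stat3 stays at or below 0.0368 RPKM in all 4 libraries.

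Of the cytokines, Lif was expressed and lower in both knockouts, and Il6 was near the limit of detection. Lif (ENSMUSG00000034394.14, chromosome 11, 4257557 to 4272514, plus strand, 4 exons) was at 17 RPKM in parental cells, 22.8 with the vector, 7.59 in exon 3 and 8.94 in exon 2 knockout cells, from 325, 355, 109 and 123 reads. Both knockouts were below both controls. The means were 8.27 ± 0.959 (SD, n = 2) in knockouts and 19.9 ± 4.13 (SD, n = 2) in controls, so knockouts held 41.5% of the control level. The fitted log2 difference was -1.16 (SE 0.325), the single pairs ran from -1.47 to -0.86, and 506 genes had a lower value.

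Il6 (ENSMUSG00000025746.11, chromosome 5, 30013114 to 30019981, plus strand, 5 exons) was at 0.151 RPKM in parental cells, 0.495 with the vector, 0.067 in exon 3 and listed at 0 in exon 2 knockout cells. Those values were 3, 8, 1 and 0 reads. A count of 0 in the exon 2 knockout allows up to 0.21 RPKM (3 reads). That limit lies within the intervals of the parental line and the exon 3 knockout. By the Wilson method the exon 2 knockout reached up to 0.269 RPKM, within the vector control interval (0.251 to 0.977 RPKM). The intervals of the parental line, the vector control and the exon 3 knockout overlapped, and the vector control was the highest library. With so few reads no group difference in Il6 is described.

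The receptor chain shared by the family was abundant and differed most between the controls. Il6st (ENSMUSG00000021756.12, chromosome 13, 112464070 to 112510086, plus strand, 17 exons) was at 166.3 RPKM in parental cells, 66.3 with the vector, 83.7 in exon 3 and 110.9 in exon 2 knockout cells. Both knockouts lay between the controls. The fitted log2 difference was -0.12 (SE 0.407). Without the parental line the difference was 0.53, and without the vector control it was -0.78, so the choice of control set its sign. From 4637 to 14305 reads stood behind each value, so counting error was small beside the 2.51-fold distance between the controls.

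Osmr (ENSMUSG00000022146.12, chromosome 15, 6813577 to 6874969, minus strand, 18 exons), which encodes the receptor chain that pairs with gp130 to bind oncostatin M, was just above the filter. It was at 1.47 RPKM in parental cells, 1.75 with the vector, 1.1 in exon 3 and 1.29 in exon 2 knockout cells. Both knockouts were below both controls by a small margin. The fitted log2 difference was -0.25 (SE 0.378), and it turned to 0.03 under quantile normalization and to 0.31 after correction for GC content and length. Reads numbered between 76 and 135 per library, and the 95% Wilson intervals of the parental line (1.24 to 1.74 RPKM) and the exon 2 knockout (1.04 to 1.59) overlapped.

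Jak1 (ENSMUSG00000028530.14, chromosome 4, 101152367 to 101265282, minus strand, 25 exons), the Janus kinase most used by gp130, was at 31.7 RPKM in parental cells, 36.9 with the vector, 19.6 in exon 3 and 26.1 in exon 2 knockout cells. Both knockouts were below both controls, and the exon 3 knockout was the lowest. The means were 22.9 ± 4.61 (SD, n = 2) in knockouts and 34.3 ± 3.65 (SD, n = 2) in controls. The fitted log2 difference was -0.58 (SE 0.312) with single pairs from -0.88 to -0.27. After correction for GC content and length it was -0.13 and the groups overlapped.

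Stat3 (ENSMUSG00000004040.16, chromosome 11, 100885098 to 100939540, minus strand, 24 exons), the factor at the end of the pathway, was at 0.0138 RPKM in the parental line, 0.0368 in the exon 3 knockout and listed at 0 in the vector control and the exon 2 knockout. In reads this was 1, 2, 0 and 0. A count of 0 allows up to 0.0511 RPKM in the vector control and 0.0577 in the exon 2 knockout (3 reads each). Stat3 therefore stayed below the filter, and no group difference could be described.

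The neighbours of Stat3 were then looked at, a choice made after its values were seen. Along chromosome 11 the protein-coding genes Stat5b, Stat5a, Stat3, Ptrf (now Cavin1) and Atp6v0a1 follow one another over 283.0 kb (100780731 to 101063719, GRCm38). These 5 genes held 16 reads in all over the 4 libraries, 13 of them in Stat5b, and Stat5a, Ptrf and Atp6v0a1 were listed at 0 in every library. Ptrf encodes a coat protein of caveolae and Atp6v0a1 a subunit of the proton pump of acidic organelles. The nearest gene on either side was expressed, Ghdc between 19 and 28.6 RPKM and Naglu between 22.4 and 56.8 RPKM. Further out low listings also occurred, with Hcrt at 0 in all 4 libraries, Kcnh4 at or below 0.0773 RPKM and Hsd17b1 at or below 0.304 RPKM, among the expressed genes Rab5c, Coasy and Mlx. The pattern was present in controls and knockouts alike. The housekeeping gene Gapdh was listed at 2.94 to 5.32 RPKM beside 1376 to 1968 RPKM for Actb. Whether a low listing stood for low expression was not tested, for Gapdh or for the stretch. Whether the DNA, the RNA or the counting rule gave the stretch was not tested.

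**Figure D2:**
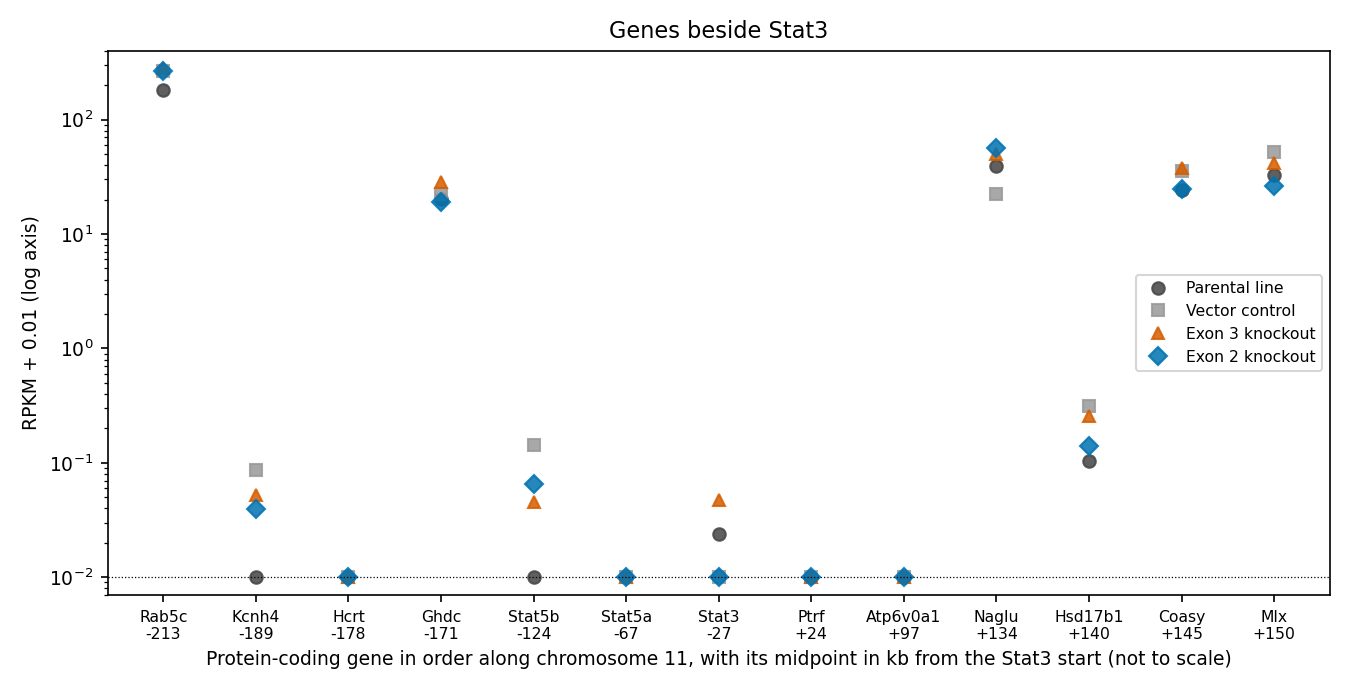
RPKM + 0.01 (log axis) of 13 protein-coding genes of the table in their order along chromosome 11, with the midpoint of each gene in kb from the start of Stat3 below its name. The dotted line marks a listing of 0. From Stat5b to Atp6v0a1, 5 genes in a row lie at or below 0.132 RPKM in all 4 libraries, while Ghdc and Naglu lie above 19 RPKM.

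Socs3 (ENSMUSG00000053113.3, chromosome 11, 117966079 to 117970047, minus strand, 2 exons), the inhibitor that Stat3 itself induces, was at 17.2 RPKM in parental cells, 18 with the vector, 19.6 in exon 3 and 11.7 in exon 2 knockout cells, from 365, 310, 312 and 179 reads. The exon 3 knockout was above both controls and the exon 2 knockout below both. The means were 15.7 ± 5.55 (SD, n = 2) in knockouts and 17.6 ± 0.544 (SD, n = 2) in controls, and the fitted log2 difference was -0.20 (SE 0.339). After correction for GC content and length it was -0.66, with both knockouts below both controls. Socs3 and Pim1, both textbook targets of Stat3, thus had different orders of libraries. Only the Socs3 window held TTCNNNGAA, and a link between the motif and the levels was not tested.

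Ordered by mean level, the set ran from Il6st and Pim3 through Jak1, Socs3, Pim1, Lif, Pim2 and Osmr to Il6 and Stat3. Il6st and Pim3 overlapped in range, as did Jak1 with Socs3, Socs3 with Pim1, Pim1 with Lif, and Il6 with Stat3. The other neighbours in that order (Pim3 and Jak1, Lif and Pim2, Pim2 and Osmr, Osmr and Il6) had ranges over the 4 libraries that did not overlap.

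In all, 8 of the 10 genes were at mean RPKM of at least 1, and 2 of those were higher in both knockouts than in both controls (Pim1 and Pim3) and 3 were lower (Lif, Jak1 and Osmr). Over all 10871 tested genes these shares were 21.9% and 31.2% (2384 and 3395 genes, and 3015 and 2612 under quantile normalization). At least 2-fold in all 4 pairs, Pim1 was higher and no member was lower, against 0.267% and 1.73% of all tested genes. The lowest pair of Pim1 was 0.92, under 2-fold, once GC content and length were corrected for. Since the knockout difference helped to choose the set, nothing is read from these counts. Between the controls, Il6st alone of the 8 was at least 2-fold apart, where 8.53% of all tested genes were. None of the 8 was 2-fold apart between the knockouts, where 4.99% of all tested genes were.

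The genes differed in base composition. The coding sequences of Pim1, Pim2, Pim3 and Socs3 held 58.7%, 60.4%, 64.3% and 61.5% G and C, while those of Jak1, Osmr and Il6st held 47.9%, 45.2% and 49.9%. When the log2 values of each library were corrected for GC content and coding length over 10776 genes, the difference was 1.31 (SE 0.3) for Pim1, 0.73 (SE 0.27) for Pim3 and -1.49 (SE 0.291) for Lif. These 3 genes kept groups that did not overlap. Of the other 5, Pim2, Il6st and Osmr changed sign, the groups of Jak1 came to overlap and those of Socs3 came apart. The groups of Pim2 and Il6st overlapped before and after. Osmr went from both knockouts below both controls to both above, with corrected pairs from 0.14 to 0.49. The part of base composition in the uncorrected differences was not tested.

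**Figure D3:**
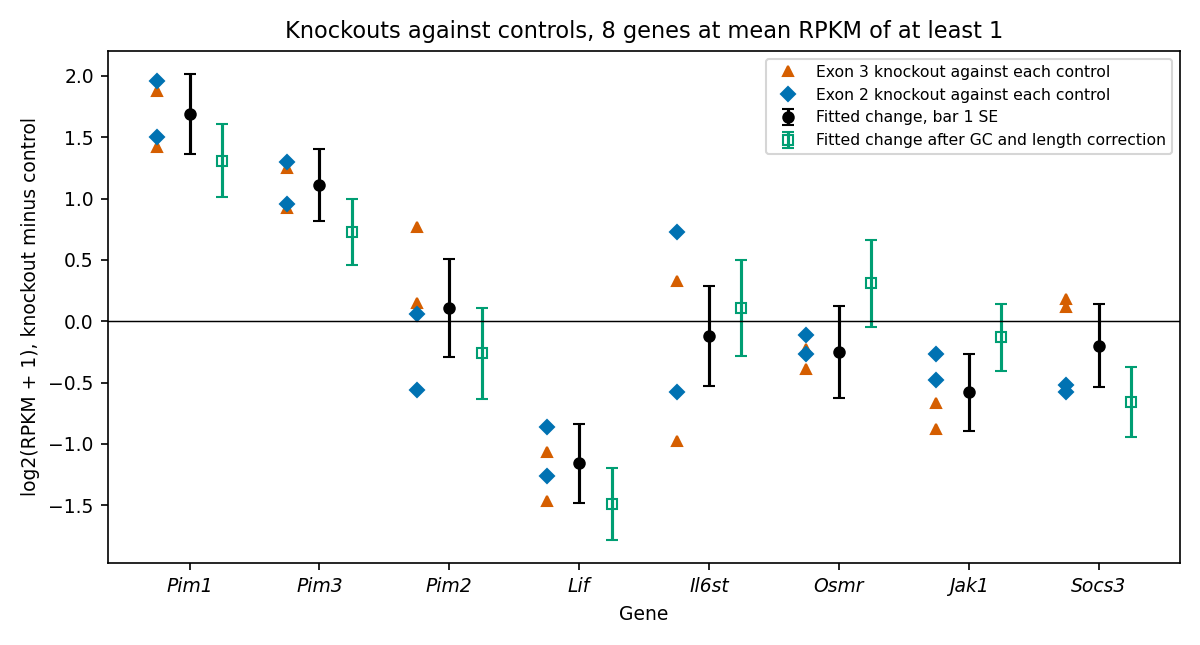
Difference in log2(RPKM + 1), knockout minus control, of the 8 genes at mean RPKM of at least 1. Triangles and diamonds are single pairs of a knockout and a control, black points the fitted difference with 1 SE, and open squares the fitted difference after GC and length correction with 1 SE. Pim1 and Pim3 stay above 0 and Lif below 0 in both fits, while Osmr changes sign.

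The rest of the pathway was covered by 6 lists of 73 genes, of which 58 were at mean RPKM of at least 1. With limma on all 10871 genes, 0 of the 58 passed an adjusted p of 0.05 (0.0184% of all tested genes did, 2 genes). At an unadjusted p under 0.05, 3 of the 58 were higher and 6 lower in the knockouts, against 5.32% higher and 13.8% lower of all tested genes. With median ratio scaling these numbers were 5 and 4 of the 58, and 965 higher and 1212 lower of all tested genes against 578 and 1498. Under quantile normalization 855 were higher and 944 lower. Without overlap of the groups, 11 of the 58 were higher and 19 lower, against 21.9% and 31.2% of all tested genes. The counts by list below are to be read beside those shares. The median log2 difference of the 58 was -0.05 and that of all tested genes -0.08. The p-values of limma measure only the spread between these libraries, which may be technical. An exact permutation test of 2 libraries against 2 cannot go below a two-sided p of 0.333.

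Among the other ligands, 4 of 8 genes were above the filter, and the median log2 difference was 0.11. Clcf1, a ligand of the ciliary neurotrophic factor receptor, was at 9.3 RPKM in parental cells, 14.9 with the vector, 8.17 in exon 3 and 7.22 in exon 2 knockout cells. Cntf ranged from 0.751 to 2.09 RPKM with overlapping groups. Osm, which encodes the oncostatin M that Osmr binds, was listed at 0 in all 4 libraries.

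Among the other receptors, 4 of 5 genes were above the filter, 2 were lower without overlap and none higher, with a median of -0.28. Il6ra, the chain that binds Il6 before gp130, was at 14.8 RPKM in parental cells, 14.1 with the vector, 8.13 in exon 3 and 6.02 in exon 2 knockout cells. Both knockouts were below both controls, the log2 difference was -0.95 (SE 0.326), and limma gave an adjusted p of 0.177. Lifr, the chain that binds Lif, was at 6.55, 5.71, 4.74 and 3.09 RPKM in that order, a log2 difference of -0.56 (SE 0.354) that was -0.07 after correction for GC content and length. Il27ra varied from 0.269 to 2.08 RPKM, with the vector control lowest and the exon 3 knockout highest.

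Among the other Janus kinases and STAT factors, 6 of 9 genes were above the filter, 3 were lower without overlap and none higher, with a median of -0.33. Stat2, a STAT factor of interferon signalling, was at 29.1 RPKM in parental cells, 58.8 with the vector, 20.6 in exon 3 and 26.2 in exon 2 knockout cells. Both knockouts were below both controls, and the vector control stood well above the parental line. The log2 difference was -0.81 (SE 0.369) and limma gave an adjusted p of 0.262. Without the parental line the difference was -1.3 with an adjusted p of 0.0193, so this call rested on which control was used. Jak2 was at 5.38, 6.68, 3.22 and 4.28 RPKM in that order, a difference of -0.57 (SE 0.349) that turned to 0.12 after correction for GC content and length.

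Among the inhibitors, 14 of 15 genes were above the filter, 2 were higher and 5 lower without overlap, with a median of -0.32. Socs4 was at 6.72 RPKM in parental cells, 10.3 with the vector, 3.12 in exon 3 and 5.57 in exon 2 knockout cells, with a log2 difference of -0.84 (SE 0.377). Pias2, of the family of SUMO ligases that restrain STAT factors, was at 26.9, 28.9, 13.3 and 19.9 RPKM, a log2 difference of -0.74 (SE 0.323). Pias4, of the same family, went the other way with 20.8, 26.1, 41 and 36.2 RPKM and a log2 difference of 0.70 (SE 0.306). Limma gave these 3 genes adjusted p-values of 0.253, 0.247 and 0.249. After correction for GC content and length their differences were -0.44, -0.25 and 0.39, and the groups still did not overlap.

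Among textbook Stat3 target genes, 16 of 20 were above the filter, 3 were higher and 5 lower without overlap, with a median of 0.07. Part of this list had been seen in earlier results of these data, so it is not independent evidence. Hif1a, the oxygen-sensing transcription factor, was at 76.4 RPKM in parental cells, 125.1 with the vector, 24.5 in exon 3 and 30 in exon 2 knockout cells. Both knockouts were below both controls by more than 2-fold, with a log2 difference of -1.81 (SE 0.332) and an adjusted p of 0.0909 by limma. After correction for GC content and length the difference was -1.2 with pairs from -1.56 to -0.85, so not every pair was then 2-fold apart. Mmp9, a secreted protease of type IV collagen, was at 3.42, 3.03, 0.971 and 0.122 RPKM, a log2 difference of -1.51 (SE 0.412). The exon 2 value rested on 6 reads, and the difference was -3.14 with voom on the recovered reads and -1.1 without the exon 2 knockout. Bcl2l1, which encodes the survival factor Bcl-xL, went the other way with 165.2, 82.1, 271.7 and 283.7 RPKM and a difference of 1.25 (SE 0.355). Limma gave Mmp9 and Bcl2l1 adjusted p-values of 0.13 and 0.137. After correction for GC content and length the difference was -1.71 for Mmp9 (pairs from -2.09 to -1.33). For Bcl2l1 it was then 0.91 (pairs from 0.24 to 1.57). Without that correction, Hif1a and Mmp9 were the 2 genes of the 6 lists that were at least 2-fold apart in all 4 pairs.

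Among Pim kinase substrates, 14 of 16 genes were above the filter, 5 were higher and 3 lower without overlap, with a median of 0.16. Eif4ebp1, a brake on translation, was at 366.4 RPKM in parental cells, 521.3 with the vector, 797.2 in exon 3 and 680.9 in exon 2 knockout cells. Its log2 difference was 0.75 (SE 0.311), and 0.20 after correction for GC content and length. Akt1s1, an inhibitor within the mTOR complex, was at 45.4, 66.7, 75.8 and 90.9 RPKM, a log2 difference of 0.58 that was 0.23 after that correction. Cbx3, a heterochromatin protein, was at 2.26, 4.07, 0.926 and 1.94 RPKM, a log2 difference of -0.77 that was then -0.44. After the correction the groups of Eif4ebp1 and Akt1s1 overlapped and those of Cbx3 did not. RNA levels of substrates do not show their phosphorylation.

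**Figure D4:**
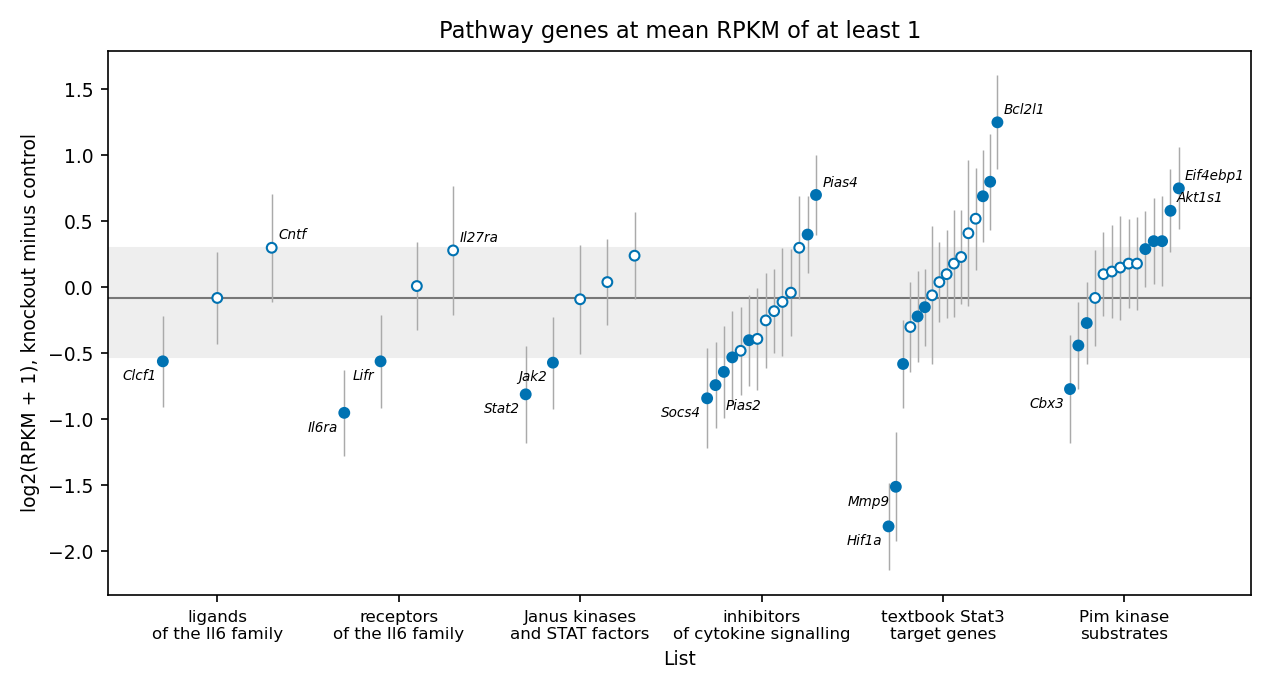
Difference in log2(RPKM + 1), knockout minus control, of pathway genes at mean RPKM of at least 1, with 1 SE. Filled points mark genes whose groups did not overlap, the line is the median of all tested genes (-0.08) and the band their quartiles (-0.53 to 0.3). Mmp9 and Hif1a lie far below the band and Bcl2l1 far above it.

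The genes whose levels over the 4 libraries were most like those of Pim1 were Ndrg1, Ptx3, Ass1 and Trnp1, by the root mean square distance of log2(RPKM + 1) centred on each gene. Their distances ran from 0.130 for Ndrg1 to 0.206 for Trnp1. Ndrg1 was at 21.3 RPKM in parental cells, 27.8 with the vector, 63.2 in exon 3 and 76.6 in exon 2 knockout cells. Pim3 came at place 94 with a distance of 0.404. With 4 libraries of which Pim1 set 2 apart, the measure finds genes with that split and is a description only.

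The labelled cells were checked against marker genes. T cell markers (Cd3e, Cd3g and Cd2) were listed at 0 in all 4 libraries, the 3 endothelial markers summed to at most 0.433 RPKM, and of 6 macrophage and leukocyte markers Ptprc, Csf1r, Adgre1 and Itgam were at or below 0.173 RPKM. The other two were expressed, Cd68 at 4.92, 3.36, 11.5 and 13.2 RPKM and Cd14 at 9.42, 34.5, 8.74 and 7.15 RPKM in the order parental, vector control, exon 3 and exon 2. Cd68 was higher in both knockouts (limma adjusted p of 0.105), and Cd14 stood out in the vector control, with the parental line close to the knockouts. The 6 summed to between 14.3 and 38 RPKM in controls and to 20.4 RPKM in each knockout. Of 6 epithelial markers, Krt8 and Krt18 were expressed, while Epcam, Cdh1, Krt5 and Krt14 were at or below 0.657 RPKM, and the 6 summed to between 34.3 and 129.8 RPKM in controls and between 74.8 and 107.1 in knockouts. The 5 mesenchymal markers were all above the filter and summed to between 2436 and 4578 RPKM in controls and between 2191 and 2337 in knockouts. Vim made up most of that sum, and the controls stood far apart in collagen genes, with Col1a1 at 670.3 RPKM in parental cells and 6.93 with the vector (54.3 and 24.2 in exon 3 and exon 2 knockout cells) and Col1a2 at 807.8 and 148.6. The part of these marker genes in the values of the Pim and Il6 pathway genes was not tested. In such bulk samples, fewer cells of a type and less RNA per cell could not be told apart.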

How the data were processed

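RNA of 4 mouse mammary tumor cell lines was sequenced. The labels name RNeasy extraction and a stranded total RNA kit, and the submitters' processing notes name CASAVA 1.8, GSNAP and GRCm38. The authors deposited 1 table of RPKM values with 1 column per library. How reads were counted is not given in the sources used here. Groups came from the sample titles, and 0 columns were without a sample.

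Relative depth was found from genes with few reads. All values of the 15405 genes above 0 came out as whole reads (100%, tolerance 0.001 reads). The absolute scale rests on gene lengths from GENCODE M21 (GRCm38), which matched an annotated coding length for 59.9% of genes. For the other genes, Osmr among them, a length was searched that made the reads whole. The share of 100% is therefore partly fixed by that search and is no check of it. Intervals and limits per library use those reads and the 95% Wilson method. A count of 0 was given the limit of 3 reads.

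Values were analysed as log2(RPKM + 1), which understates changes of low genes, for 10871 genes with mean RPKM of at least 1. Knockouts were compared with controls with limma 3.58.1 (R 4.3.3, intensity trend, Benjamini-Hochberg over all genes, threshold 0.05). The fit was also run on simulated counts whose spread was set beforehand, so that run is no check of the calls made here. Python 3.11.15 was used for the rest.

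Alternatives were a pseudocount of 0.1, median ratio scaling, quantile normalization, a correction for coding GC content and length, each library left out, limma without trend or with a robust prior, limma voom on the recovered reads, no filter, and a filter at mean RPKM 5. The 10 genes and the lists were chosen with earlier results of these data known. Named beside the 10 genes were S100a4, in each list the genes at least 2-fold apart in all 4 pairs and the 3 of largest difference, and the 5 genes most like Pim1. Some of the genes so named are not reported here. Symbols matched for 99.4% of genes. Promoter windows were taken from RefSeq for GRCm38.p6. Protein sequences were not used here.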

Additional observations from a re-analysis of the deposited data

Results flagged for a closer look

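Socs3 stood on opposite sides of both controls in the 2 knockouts. It was at 19.6 RPKM in the exon 3 knockout, above the parental line (17.2 RPKM) and the vector control (18 RPKM), and at 11.7 RPKM in the exon 2 knockout, below both. The exon 2 value was lower than the exon 3 value by a log2(RPKM + 1) difference of -0.69. With 1 library per knockout line the difference was not tested between lines. The 95% Wilson interval of the exon 2 knockout, 10.2 to 13.6 RPKM, was below that of every other library, and that of the exon 3 knockout, 17.6 to 21.9 RPKM, overlapped those of both controls. After correction for GC content and length both knockouts were below both controls, with pairs from -0.93 to -0.38, and the order was no longer seen. Of 26 named genes examined this way, 1 had such an order, and of all 10871 tested genes 857 did (7.88%).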

How the results depend on the processing

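Pim1 was chosen for its higher level in both knockouts, so its direction, kept under all 13 alternatives, is not evidence. Leaving out a library or changing the pseudocount, filter, trend or prior could not have reversed that direction. The log2 difference of Pim1 was 1.31 after GC and length correction and ran from 1.46 to 1.92 when 1 library was left out. Osmr reversed to 0.03 under quantile normalization and to 0.31 after GC and length correction. Of the 8 genes, 2 were higher without overlap, and 3 after GC and length correction (Osmr added). That number ran from 2 to 4 when 1 library was left out, with 4 without the exon 2 knockout (Pim2 and Socs3 added). Leaving out a library leaves 1 sample in an arm, which is assumed to vary like the other group. Quantile normalization moved the median of all genes by 0.12.

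Of the 58 pathway genes, 0 passed the adjusted threshold, against 3 with a robust prior (Bcl2l1, Mmp9, Hif1a), 1 at a filter of mean RPKM 5 (Hif1a) and 0 to 5 when 1 library was left out, 2 without the vector control (Mmp9, Hif1a) and 5 without the parental line (these 2, Stat2 and Bcl2l1 among them). Adjusted p over these alternatives ran from 1.39e-06 to 0.391 for Hif1a and from 0.0193 to 0.739 for Stat2. Pathway genes higher at an unadjusted p under 0.05 numbered 5 with median ratio scaling, 1 after GC and length correction, 5 with no filter and 1 to 6 when 1 library was left out. Those 2-fold higher in all pairs numbered 0 to 1 and those 2-fold lower 2 to 4 when 1 library was left out, and 1 was 2-fold lower with median ratio scaling, with quantile normalization and at a filter of mean RPKM 5.

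Over all tested genes, 2 passed the adjusted threshold, against 1 with a pseudocount of 0.1, 0 with median ratio scaling, 1 with quantile normalization, 0 after GC and length correction, 285 with a robust prior, 0 with voom, 0 with no filter, 32 at a filter of mean RPKM 5, and 0 to 802 when 1 library was left out (449 without the vector control, 802 without the parental line). At an unadjusted p under 0.05, 578 were higher and 1498 lower. Higher genes numbered 965 with median ratio scaling, 316 after GC and length correction and 219 to 837 when 1 library was left out, and lower genes 944 with quantile normalization and 643 to 1680 when 1 library was left out. Genes 2-fold higher in all pairs numbered 29, against 44 with a pseudocount of 0.1, 51 with quantile normalization, 10 after GC and length correction, 47 with voom and 104 to 233 when 1 library was left out. Those 2-fold lower numbered 188, against 330, 94, 120 and 347 under the same 4 and 352 to 823 when 1 library was left out. Pairs are fewer when a library is left out, and the cause of the other shifts was not tested.

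No paired analysis was possible because the replicate numbers follow the order of deposition and tie no knockout line to a control line. Few reads stood behind Il6 (at most 8 reads per library) and Stat3 (at most 2 reads), so no group difference is described for them. Whether sequencing depth set these low counts was not tested.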
